A study of Mus musculus with 6 samples.

Results

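The ligands of the epidermal growth factor (EGF) receptor and the receptors of the ErbB family were followed in ischemic muscle of mice with and without GPR174. The set holds 10 genes taken by name from the 18089 genes of the deposited table, and each gene's value is the sum over its listed RefSeq transcripts. There were 7 ligands, with Entrez gene identifiers 11839 (Areg), 13874 (Ereg), 15200 (Hbegf), 21802 (Tgfa), 13645 (Egf), 12223 (Btc) and 211323 (Nrg1). The 3 receptors were Egfr (13649), Erbb2 (13866) and Erbb3 (13867). RNA was sequenced in bulk from the gastrocnemius of male C57BL/6 mice aged 8 to 10 weeks, at day 7 after hindlimb ischemia (HLI), in which the left femoral artery is tied off and removed. Both groups had HLI, and no muscle without ischemia was analysed here. The 3 WT samples came from wild-type littermates and the 3 GPR174-KO samples from Gpr174-/Y mice, which lack the X-linked receptor gene in every cell. The comparison asked which of these ligands and receptors differed with the loss of GPR174, a receptor for lysophosphatidylserine, and where Areg, the ligand the study followed, stood among them.

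EGF family ligands are made as membrane-anchored precursors, and metalloproteases such as ADAM17 and ADAM10 cut them loose. AREG, EREG, HBEGF, TGFA, EGF and BTC bind EGFR, while neuregulin 1, the product of Nrg1, binds ERBB3. ERBB2 has no known ligand and pairs with the other receptors, whereas ERBB3 has little kinase activity of its own and signals mainly through ERBB2. In injured muscle, amphiregulin from regulatory T cells is known to act on satellite cells, and neuregulin 1 from motor axons acts on Schwann cells and on the neuromuscular junction.

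The sequence before the Areg start site is shown because Areg was the ligand of interest and GPR174 couples to cAMP signalling. Erbb2 and Egf are shown beside it as the members with a window in the RefSeq promoter table (build GRCm38.p6) that changed in opposite directions in these muscles. Each sequence is the 250 bases before an annotated start, and for Egf the farther upstream of its listed starts was used. Areg lies at chr5:91139349-91139598 on the plus strand, Erbb2 at chr11:98412234-98412483 on the plus strand, and Egf at chr3:129755323-129755572 on the minus strand. Capitals mark matches to these motifs on either strand. TGACG is the core of a cAMP response element. The letters searched for a GC box were GGGCGG. Those searched for a TATA box were TATAAA. The core bound by EGR1 was searched as GCGNGGGCG.
Areg: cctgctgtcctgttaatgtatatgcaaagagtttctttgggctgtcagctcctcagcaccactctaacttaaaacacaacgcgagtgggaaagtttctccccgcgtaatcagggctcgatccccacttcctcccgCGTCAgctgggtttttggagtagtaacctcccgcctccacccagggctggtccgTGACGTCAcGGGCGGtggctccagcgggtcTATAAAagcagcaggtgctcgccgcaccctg
Erbb2: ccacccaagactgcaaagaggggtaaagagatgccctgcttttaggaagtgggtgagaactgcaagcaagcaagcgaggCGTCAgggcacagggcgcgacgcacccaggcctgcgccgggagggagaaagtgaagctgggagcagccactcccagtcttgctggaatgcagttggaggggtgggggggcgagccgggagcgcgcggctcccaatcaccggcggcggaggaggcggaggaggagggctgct
Egf: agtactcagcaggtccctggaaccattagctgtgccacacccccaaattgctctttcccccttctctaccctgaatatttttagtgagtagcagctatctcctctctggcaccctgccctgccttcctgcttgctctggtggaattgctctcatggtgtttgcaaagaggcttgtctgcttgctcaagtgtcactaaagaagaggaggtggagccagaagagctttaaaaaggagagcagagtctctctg
Counting back from the start site, the Areg window held the palindrome TGACGTCA at -61, a full cAMP response element in which TGACG reads on both strands, and a further TGACG at -115. TGACGTCA was found in 1.55% of the 32851 windows of the same length in the table, and TGACG in 17.8%. Areg also held a GC box at -52 and a TATA box at -31, found in 32.7% and 12.4% of windows. The Erbb2 window, with 66.0% G and C, held 1 TGACG at -171 and no other match. The Egf window, with 50.4% G and C, held none of the motifs. GCGNGGGCG was not in any of these windows, and 4.70% of all windows held it. Other forms of the EGR1 motif were not searched, so its absence says nothing about EGR1 binding. These matches are letters in a window, and binding was not measured in these data. The paper predicts EGR1 sites in the Areg promoter, some of them upstream of the start. In a cultured cell line it reports EGR1 binding to that promoter and lower reporter activity with some of these sites mutated.

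Library totals ran from 18417077 to 19394469 counts, so that 3 counts stood for 0.155 to 0.163 CPM (counts scaled to a common library total). Gpr174 counted 8, 2 and 5 in WT and 1, 0 and 0 in GPR174-KO, which follows the labels at a very low level. Among 10632 genes with at least 100 counts in every library, WT replicate 2 lay between replicates 1 and 3 for 77.7% and GPR174-KO replicate 2 did so for 66.6%. Most of these genes were thus ordered by replicate number in both groups, and whether the replicates are independent was not tested. WT replicate 3 was the WT library nearest to the GPR174-KO mean for 7 of the 10 members. The 14 mature muscle fibre markers, including Acta1 and Ckm, all passed the test and were lower in GPR174-KO (13 of the 14 with total counts). They summed to 129837 to 187275 CPM in WT and 56840 to 63936 CPM in GPR174-KO, so scaling mattered for genes with small differences. Groups were compared in CPM scaled by the trimmed mean of M-values (TMM), which brings the median log2 fold change of all tested genes to 0.00, whereas total counts alone place it at 0.28.

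Levels of different genes were compared in TPM, a transcript abundance scaled for transcript length and library size. Hbegf, an EGFR ligand that also binds heparin, was the most abundant member in every library, with TPM of 20.1, 20.9 and 20.6 in WT and 29.2, 26.4 and 23.0 in GPR174-KO. Egfr came next in every library, with TPM of 12.6, 12.6 and 13.2 in WT and 16.5, 16.7 and 17.2 in GPR174-KO. In WT, Erbb2 (mean TPM of 7.11 ± 1.14, SD, n = 3), Egf (6.34 ± 1.21) and Erbb3 (4.95 ± 0.924) followed, and the ranges of neighbours in that order overlapped. Btc, Nrg1 and Tgfa came below them with mean TPM of 0.643, 0.390 and 0.250, and the ranges of Btc and Nrg1 and of Nrg1 and Tgfa overlapped. Areg was ranked 9 of 10 in WT at 0.17 TPM in each library, and Ereg was last at 0.05 to 0.07 TPM.

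In GPR174-KO the order behind Egfr was Erbb3 (mean TPM of 14.0 ± 0.254, SD, n = 3), Erbb2 (12.8 ± 0.601), Egf (2.57 ± 0.344), Nrg1 (2.09 ± 0.361), Btc (0.623 ± 0.255), Areg, Tgfa (0.350 ± 0.0608) and Ereg. The ranges of Egf and Nrg1 overlapped, as did those of Btc and Areg. Areg had TPM of 0.44, 0.45 and 0.65, which placed it at rank 8. These Areg values lay above the Tgfa range of 0.31 to 0.42, but the counting intervals of the means overlapped, at 0.299 to 0.822 TPM for Areg and 0.255 to 0.468 TPM for Tgfa. Across the 18084 genes above 0 TPM, Areg stood at percentile 15.5 in WT and 21.4 in GPR174-KO.

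Hbegf therefore carried most of the ligand RNA in these muscles. It made up 69.7%, 73.1% and 74.3% of the summed TPM of the 7 ligands in WT and 82.1%, 82.1% and 77.1% in GPR174-KO. Areg made up 0.589%, 0.595% and 0.613% in WT and 1.24%, 1.40% and 2.18% in GPR174-KO. The mean level of Hbegf was 121 times that of Areg in WT and 51.0 times in GPR174-KO, and for Egfr these factors were 75.4 and 32.7. Each Areg mean rests on few counts, so the factors carry a wide counting error.

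**Figure D1:**
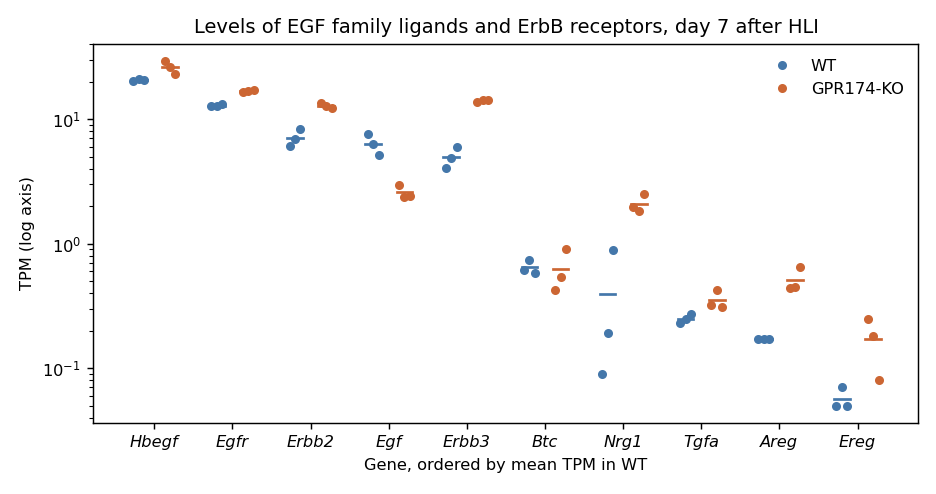
TPM of the 10 members on a log axis, with 1 point per library, WT in blue, GPR174-KO in orange and group means as bars. Hbegf and Egfr lead in every library, Areg lies at 0.17 TPM in WT and 0.44 to 0.65 TPM in GPR174-KO, and the WT values of Nrg1 spread most on this log axis, from 0.09 to 0.89 TPM.

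Of the 10 members, 8 passed the filter on low counts, and Areg and Ereg did not. At an adjusted p under 0.05 by edgeR's quasi-likelihood test, 4 of the 8 were called, with Nrg1, Erbb2 and Erbb3 higher and Egf lower in GPR174-KO. Of the called members, Nrg1 passed the filter only through the GPR174-KO libraries, where it was high. Of all 14395 genes tested, 54.6% were called at that threshold, 27.0% higher and 27.6% lower, so the members' share lay near that of the table as a whole. The groups did not overlap for 4 of the 8, beside 65.7% of all genes tested. With an absolute log2 fold change above 1 added, Nrg1, Erbb3 and Egf were called, where the background was 8.28%. The median log2 fold change of the 8 members was 0.09, beside 0.00 over all tested genes. Because muscle was sequenced in bulk, fewer cells of a type and less RNA per cell cannot be told apart in any of these values.

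Areg counted 2, 2 and 2 in WT and 5, 5 and 7 in GPR174-KO, so every GPR174-KO library was above every WT library. Each WT library was below the floor of 3 counts. The summed counts were 6 (95% exact Poisson interval 2.2 to 13.1) and 17 (9.90 to 27.2), a ratio of 2.27 after scaling with an exact interval of 0.854 to 7.03, which covers counting error only. In the fit without the filter, the log2 fold change of Areg was 1.14 (SE 0.43) with an adjusted p of 0.125 by edgeR, where 43.9% of 18034 genes were called. The exact 2-sided permutation test of the scaled CPM gave p = 0.1, the smallest that 3 against 3 samples allow. Groups without overlap were found for 56.9% of the 18034 genes. An increase of Areg was thus seen in 3 of 3 GPR174-KO libraries but did not pass the test. The call depended on method: Areg passed with total-count scaling (adjusted p = 0.0471, edgeR), with limma voom (0.0372) and with limma on log2(FPKM + 0.1) (0.00353).

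Ereg, the neighbour of Areg in the genome and a ligand of EGFR and ERBB4, was also near the floor. It counted 2, 3 and 2 in WT and 10, 7 and 3 in GPR174-KO, and the groups overlapped. Its summed counts of 7 and 20 gave a ratio of 2.29 with an exact interval of 0.929 to 6.40. The log2 fold change was 1.16 (SE 0.58) without the filter, with an adjusted p of 0.144 by edgeR. The call turned on 1 library: without GPR174-KO replicate 3 it was 1.51 (adjusted p = 0.0383, edgeR) and without GPR174-KO replicate 1 it was 0.74 (adjusted p = 0.39, edgeR).

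Nrg1 changed most among the members. Its scaled CPM was 0.496, 1.19 and 2.63 in WT and 7.27, 7.47 and 8.67 in GPR174-KO, on counts of 8, 20 and 47 against 152, 158 and 186. The groups did not overlap, and WT replicate 3 was the highest of the WT libraries. Nrg1 rose by a log2 fold change of 2.40 (SE 0.39), that is 5.27-fold, with an adjusted p of 0.00303 by edgeR. Without WT replicate 3 the log2 fold change was 3.19 (adjusted p = 3.16e-05, edgeR). A filter of at least 10 counts in every library removes Nrg1.

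Egf, the founding ligand of the family, moved the other way. Its scaled CPM was 19.7, 15.0 and 11.0 in WT and 5.55, 4.30 and 4.38 in GPR174-KO. The lowest WT library was above the highest GPR174-KO library. Egf fell by 1.69 on the log2 scale (SE 0.23), 3.22-fold, with an adjusted p of 0.00173 by edgeR. The ratio of Egf to Hbegf in TPM, which does not depend on how libraries are scaled, was 0.377, 0.300 and 0.251 in WT and 0.102, 0.0895 and 0.104 in GPR174-KO (exact permutation p = 0.1, n = 3).

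The most abundant ligand, Hbegf, had no change that passed the test. Its scaled CPM was 28.6, 28.6 and 26.5 in WT and 31.3, 27.6 and 23.1 in GPR174-KO, and the WT values lay within the GPR174-KO range. The log2 fold change was -0.04 (SE 0.11, adjusted p = 0.793, edgeR), and with total counts it was 0.23 (adjusted p = 0.0735). Btc, which binds EGFR and ERBB4, and Tgfa, the ligand that shares EGFR with EGF, also overlapped between the groups. Btc had scaled CPM of 1.05, 1.25 and 0.895 in WT and 0.574, 0.709 and 1.12 in GPR174-KO, a log2 fold change of -0.41 (SE 0.29, adjusted p = 0.267, edgeR). Tgfa had scaled CPM of 0.558, 0.653 and 0.672 in WT and 0.670, 0.851 and 0.606 in GPR174-KO, a log2 fold change of 0.16 (SE 0.23, adjusted p = 0.688, edgeR). These genes had 9 to 24 counts per library, and the size of change that could be detected at such counts was not tested.

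**Figure D2:**
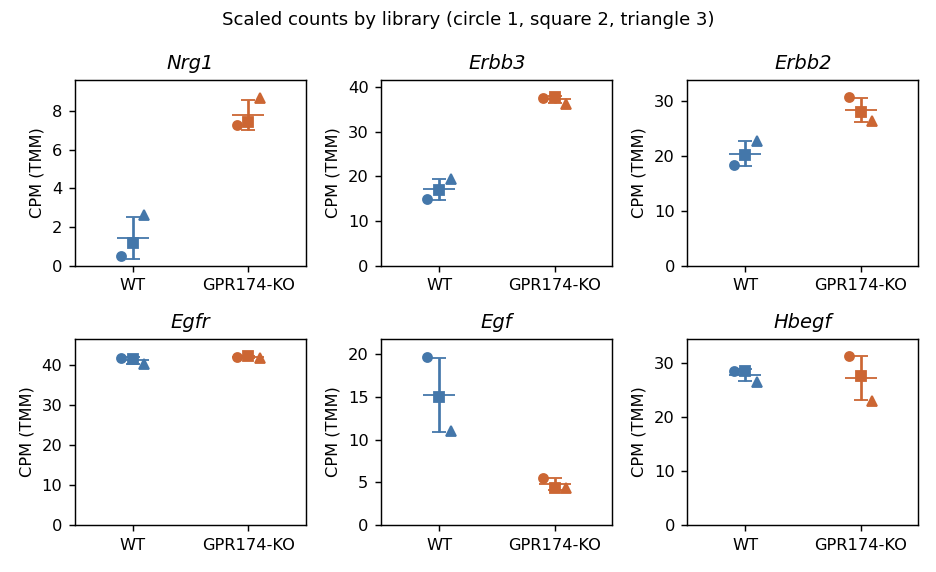
TMM-scaled CPM of 6 members in each library from an axis at 0, with the group mean as a bar, its SD as the error bar, and symbols for replicates 1 to 3. Nrg1, Erbb3, Erbb2 and Egf do not overlap between groups, whereas Egfr and Hbegf do.

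Among the receptors, Erbb3 and Erbb2 were higher in GPR174-KO, and Egfr was level once libraries were scaled by TMM. Erbb3, the neuregulin receptor, had scaled CPM of 14.8, 17.0 and 19.5 in WT and 37.6, 37.8 and 36.3 in GPR174-KO. The groups were far apart relative to their spread, with means of 17.1 ± 2.33 and 37.2 ± 0.785 (SD, n = 3). Erbb3 rose by a log2 fold change of 1.11 (SE 0.10), that is 2.16-fold, with an adjusted p of 0.000717 by edgeR, the lowest among the members.

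Erbb2, the shared partner receptor, had scaled CPM of 18.3, 20.2 and 22.8 in WT and 30.8, 28.1 and 26.3 in GPR174-KO. The groups did not overlap, but the gap between WT replicate 3 and GPR174-KO replicate 3 was smaller than the range within either group. Erbb2 rose by a log2 fold change of 0.47 (SE 0.10), 1.38-fold, with an adjusted p of 0.0072 by edgeR.

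Egfr, the receptor for Areg and most of the other ligands, had scaled CPM of 41.8, 41.4 and 40.2 in WT and 42.0, 42.1 and 41.7 in GPR174-KO. The groups overlapped, and the log2 fold change was 0.02 (SE 0.04, adjusted p = 0.739, edgeR). With total counts the log2 fold change was 0.29 (adjusted p = 0.00226, edgeR), close to the 0.28 of the median gene under that scaling. The TPM values of Egfr, which are not scaled by TMM, lay higher in every GPR174-KO library.

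Ratios between receptors within a library do not depend on that choice. The TPM ratio of Erbb3 to Egfr was 0.323, 0.385 and 0.449 in WT and 0.831, 0.847 and 0.822 in GPR174-KO. The ratio of Erbb2 to Egfr was 0.479, 0.551 and 0.631 in WT and 0.818, 0.758 and 0.717 in GPR174-KO. Neither ratio overlapped between groups, and each exact permutation p was 0.1, the smallest possible with n = 3. The ratio of Erbb3 to Erbb2 was 0.695 ± 0.0188 in WT and 1.09 ± 0.0693 in GPR174-KO (SD, n = 3), so that the order of the 2 receptors turned. Erbb3 made up 17.9% to 21.6% of the summed TPM of the 3 receptors in WT and 31.4% to 32.5% in GPR174-KO, and Egfr made up 48.1% to 55.5% and 37.7% to 39.4%. The TPM ratio of Nrg1 to its receptor Erbb3 overlapped between the groups, with an exact permutation p of 0.3 (n = 3). The TPM of Nrg1 depends on how its counts are split among its transcripts. In WT replicate 3, NM_001364429 gave 0.33 of the 0.89 TPM on 4.51 estimated counts. This overlap therefore holds for TPM only, and the ratio of counts was not tested.

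**Figure D3:**
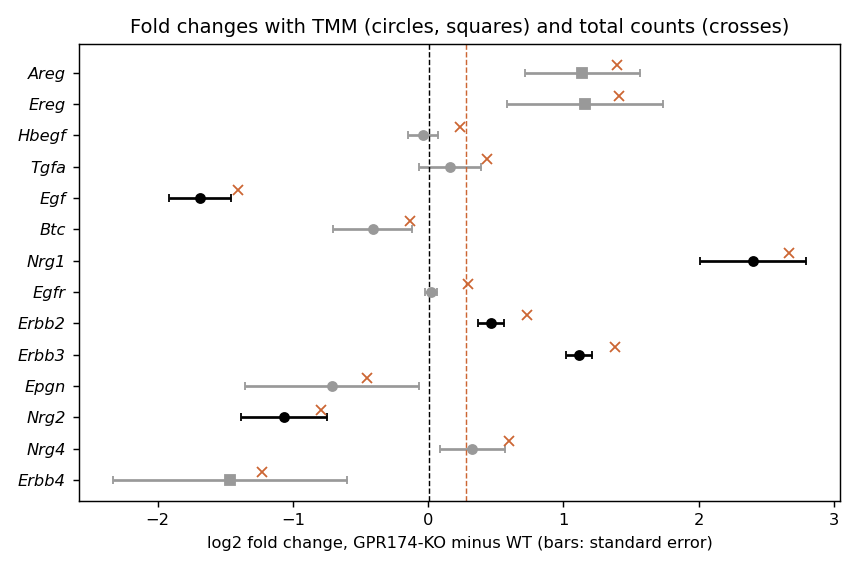
log2 fold change of GPR174-KO over WT with its standard error for the 10 members and 4 other family genes, as circles from the fit with the filter and squares from the fit without it. Black marks an adjusted p under 0.05, crosses give the value with total counts, and dashed lines mark the median gene at 0.00 (TMM) and 0.28 (total counts).

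The transcript models behind these sums differed between members. Areg, Ereg, Hbegf, Btc, Erbb2 and Erbb3 each had 1 listed transcript, Tgfa and Egfr had 2, Egf had 5 and Nrg1 had 16. For Egfr, the model NM_207655, which encodes the full-length receptor of 1210 residues, took 88.9% of the TPM over the 6 libraries. The other, NM_007912, encodes 655 residues, which lack the kinase domain, and took 11.1%. For Nrg1, no transcript took more than 19.5% of the TPM, and the leading models changed from library to library. XM_006509078, for example, was given 47.7, 42.3 and 10.7 estimated counts in the GPR174-KO libraries. The isoform estimates of Nrg1 were therefore not compared between the groups. Egf was similar, since XM_011240010 was given 83.3 estimated counts in WT replicate 1 and 0 in the other 5 libraries.

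**Figure D4:**
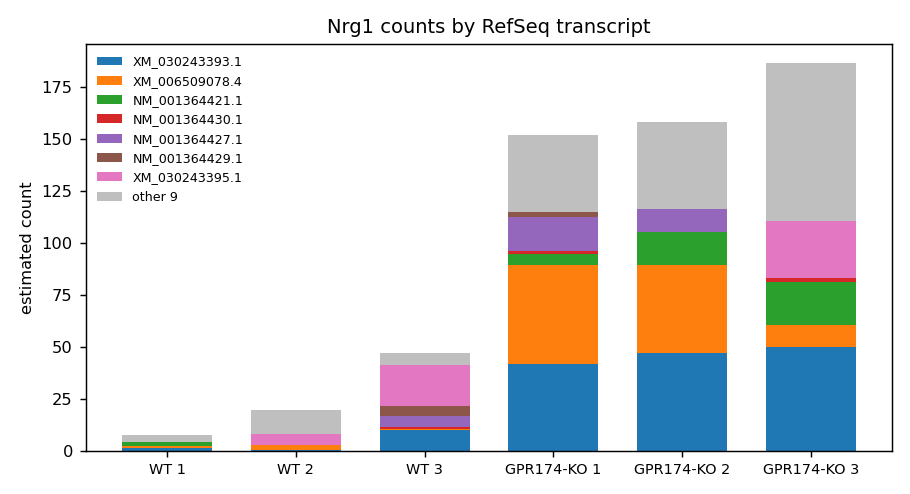
Estimated counts of the Nrg1 transcripts in each library, stacked, with the 7 models that hold at least 5% of the Nrg1 TPM in colour and the other 9 in grey. The totals rise from 8, 20 and 47 in WT to 152, 158 and 186 in GPR174-KO, while the split among models differs between libraries of a group.

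The rest of the family was sparse. Nrg2, a further neuregulin, counted 13, 17 and 17 in WT and 6, 8 and 14 in GPR174-KO, with a log2 fold change of -1.07 (SE 0.32, adjusted p = 0.0261, edgeR). Nrg2 fell here but lost its call in 9 of 18 alternatives, total counts included (adjusted p = 0.0712, edgeR). It passed the filter only through the WT libraries, where it was higher. Nrg4, an ERBB4 ligand, counted 12, 21 and 19 against 25, 24 and 33, and Epgn, an EGFR ligand, counted 3, 10 and 20 against 13, 8 and 4. Neither passed the test (adjusted p = 0.28 and 0.378, edgeR), and the scaled values of both overlapped. Erbb4 had at most 2 counts in any library, and Nrg3 was not listed.

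Genes that act on the ligands and receptors are given by list, beside the 54.6% of all tested genes that were called. Of 12 genes of ligand shedding and trafficking, 6 were higher and 1 was lower, with a median log2 fold change of 0.22. Adam17, the main protease that releases AREG, rose by a log2 fold change of 0.41 (SE 0.06, adjusted p = 0.00197, edgeR). Adam9 rose by 0.52 and Adam10 by 0.37 on the log2 scale (adjusted p = 0.0012 and 0.00219, edgeR), and Timp3, an inhibitor of ADAM17, fell by 0.67 (adjusted p = 0.00062, edgeR). With total counts, 11 of the 12 were higher and 1 was lower, where 64.7% of all genes were called and 78.4% of those were higher.

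Of 24 tested genes for adaptors and signal transducers, 6 were higher and 7 lower, with a median log2 fold change of -0.10. Akt1, Stat3 and Gab2 rose by 0.52, 0.45 and 0.48, while the adaptor Grb2 differed by 0.05 (adjusted p = 0.41, edgeR). Hras, Araf and Map2k2, which lead from the receptors to the MAP kinases, fell by 0.52, 0.31 and 0.33. With total counts the split was 12 higher and 1 lower, so the directions of these small changes depended on scaling. The count of higher genes was 3 without WT replicate 2 and without GPR174-KO replicate 2, and 3 with the replicate block. The count of lower genes was 4 without WT replicate 2.

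Of 16 feedback inhibitors of the receptors, 8 were higher and 3 lower, with a median log2 fold change of 0.12. The count of higher genes was 5 without WT replicate 2 and without each of the 3 GPR174-KO libraries in turn, and that of lower genes was 1 without WT replicate 2 and without GPR174-KO replicate 1. Ptpn1, a phosphatase, Spred1, an inhibitor of RAS signalling, and Dusp4, a MAP kinase phosphatase, rose by 0.68, 0.53 and 0.86 on the log2 scale. Spry1 and Spry4, which restrain receptor kinase signalling, and Lrig1, which promotes loss of ErbB receptors from the membrane, fell by 0.34, 0.38 and 0.64. Errfi1, which binds and blocks the EGFR kinase, differed by -0.06 (adjusted p = 0.405, edgeR). With total counts 11 were higher and 0 lower, and the 3 decreases were no longer called. Egr1, a transcription factor induced by growth factor signalling, counted 742, 714 and 703 in WT and 1700, 1754 and 1870 in GPR174-KO, and its log2 fold change was 0.97 (SE 0.07, adjusted p = 0.000477, edgeR).

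Markers of the cell types in the muscle are given by list, beside the 27.0% of all tested genes called higher and the 27.6% called lower. Of 10 macrophage and monocyte markers, 9 were higher and 0 lower, with a summed level of 1108 to 1590 CPM in WT and 2623 to 2638 CPM in GPR174-KO. Of 10 markers of regenerating fibres and satellite cells, 6 were higher and 0 lower, and Chrng, the embryonic acetylcholine receptor subunit, rose by 1.68 on the log2 scale. The sums of this list overlapped, at 6445 to 8396 CPM in WT and 7350 to 9241 CPM in GPR174-KO. Its most abundant genes, Myh3, Myh8 and Actc1, had log2 fold changes of 0.85, 0.20 and -0.28. None of them passed the test (adjusted p = 0.124, 0.412 and 0.144, edgeR). Of 10 endothelial markers, 9 were lower and 1 was higher, with sums of 1206 to 1384 CPM and 800 to 901 CPM. Of 10 fibroblast and adipogenic progenitor markers, 3 were higher and 5 lower, and their sum was 12013 to 16994 CPM in WT and 20886 to 23870 CPM in GPR174-KO. Most of that sum was Col1a1 and Col3a1, which were higher, as was Thy1, whereas Pdgfra, Dcn, Lum, Pi16 and Dpp4 were lower.

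Schwann cells carry ERBB2 and ERBB3. Of the 9 Schwann cell markers analysed, Egr2 was higher, and their summed levels overlapped at 122 to 132 CPM in WT and 122 to 143 CPM in GPR174-KO. Most of that sum was Pmp22, at 78.8 to 81.2 CPM in WT and 79.2 to 86.2 CPM in GPR174-KO. Of 8 tested T cell and regulatory T cell markers, Il1rl1 was higher and Ikzf2 lower, with sums of 24.0 to 33.9 CPM and 32.4 to 34.7 CPM. Foxp3, which defines regulatory T cells, counted 8, 9 and 13 in WT and 6, 10 and 7 in GPR174-KO. Its scaled CPM was 0.496, 0.534 and 0.728 in WT and 0.287, 0.473 and 0.326 in GPR174-KO. Each GPR174-KO library was below each WT library on this scale, but the unscaled counts overlapped, so the separation depended on scaling. Groups did not overlap for 56.9% of the 18034 genes fitted without the filter. The log2 fold change of Foxp3, -0.69, did not pass the test (adjusted p = 0.137, edgeR, without the filter). Of 8 neutrophil markers, 3 passed the filter, of which Mmp8 and Csf3r were higher and Cxcr2 lower. Mmp8 counted 3, 2 and 3 in WT and 21, 25 and 29 in GPR174-KO, so it passed the filter only through the GPR174-KO libraries. The sum of the list was 22.3 to 29.0 CPM and 33.4 to 36.8 CPM, of which Csf3r made up 14.8 to 23.6 CPM in WT and 27.9 to 30.4 CPM in GPR174-KO. The defining markers S100a8 and S100a9 had 4 to 15 counts per library, with log2 fold changes of -0.05 and -0.60 (adjusted p = 0.939 and 0.414, edgeR, without the filter), and Ly6g had at most 1 count. Of 10 keratinocyte markers, a further cell type that makes Areg and Ereg, 3 were tested and Sfn was lower. The list summed to 32.7 to 55.6 CPM in WT and 25.7 to 33.5 CPM in GPR174-KO. Most of that was Trp63, at 22.6 to 42.6 CPM in WT and 18.1 to 25.6 CPM in GPR174-KO (adjusted p = 0.0748, edgeR). Krt10 had 46 to 69 counts per library, whereas Krt5 had at most 6, Krt14 at most 1 and Krt1 0. The part of these cell types in the changes of the members was not tested.

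**Figure D5:**
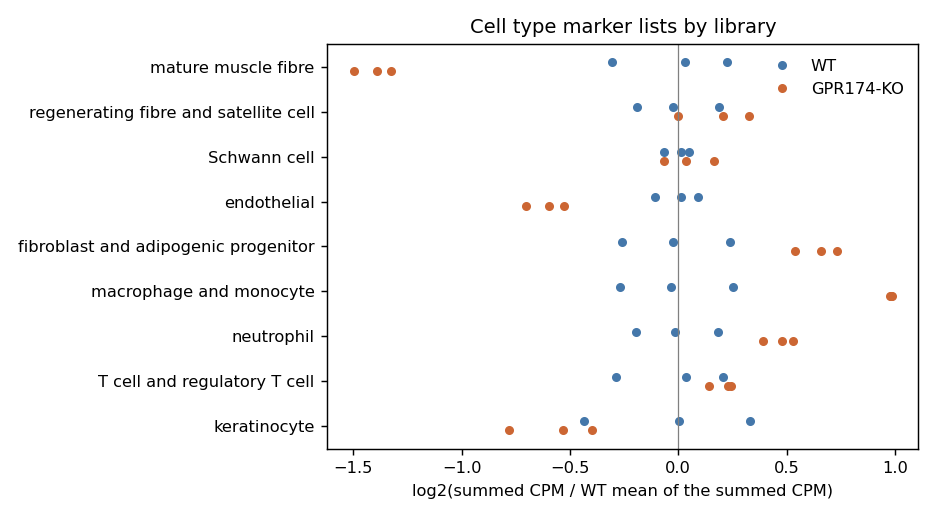
Summed CPM of each cell type marker list in each library, as log2 of its ratio to the WT mean, with WT in blue and GPR174-KO in orange. Mature fibre and endothelial sums lie lower and macrophage sums higher in all 3 GPR174-KO libraries. The fibroblast sums, mostly Col1a1 and Col3a1, and the neutrophil sums, mostly Csf3r, also lie higher, although both lists hold genes that were lower. Regenerating fibre and Schwann cell sums overlap.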

How the data were processed

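Total RNA from ischemic gastrocnemius of 3 WT and 3 GPR174-KO mice was sequenced, on a BGISEQ instrument per the methods, although the labels name Illumina library preparation. The values come from 1 deposited table that lists 58843 RefSeq transcripts, each with an estimated count, which may be fractional and carries no normalization. The authors also deposited FPKM and TPM, both scaled for transcript length and library size. The submitters' processing notes list HISAT2 2.0.4, Bowtie2 2.2.5, RSEM 1.2.12 and build GRCm39, without their roles. Strand use is not given in the sources used here. The table's means per group were left aside.

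Estimated counts were summed per Entrez gene and rounded, giving 18089 genes. Symbols were found for 18037 of them (99.7%). TPM was summed likewise for levels. Tests used edgeR 4.0.16 in R 4.3.3 (TMM, filterByExpr, robust quasi-likelihood F-test, Benjamini-Hochberg adjustment over all tested genes), with 14395 genes tested. Areg, Ereg, Erbb4 and Gpr174 were removed by the filter, and their values come from the same fit without it, over 18034 genes. The SE is the log2 fold change divided by the square root of F. The methods name DEGseq, and its MA-plot test was rewritten for the summed counts as an alternative. On simulated data with 200 well-counted genes changed 2-fold and the same dispersion for every gene, edgeR recovered 99.5%. Genes with few counts, such as Areg and Ereg, were not among those changed, so recovery at their counts was not tested. Intervals cover counting error only.

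Same-numbered samples are different mice, so replicate numbers were not used as a block. No source states how libraries were batched. Since the labels do not say that replicates are separate animals and only the methods give 3 mice per group, p-values measure the spread between these samples. The members and lists were chosen with earlier results of these data known. Named genes are the 10 members, the other family genes, Gpr174, Egr1, Adam17, Grb2, Errfi1, and up to 3 genes of each list with the lowest p in each direction. The Schwann cell list was first written with 10 genes, of which 1 is not reported here and was left out of its counts and sums. Transcripts named hold at least 5% of a gene's TPM. Acta1, Ckm, Foxp3, Pmp22, and the regenerating fibre, keratinocyte, fibroblast and neutrophil genes outside that rule were chosen after their values were seen. Transcript models of Egfr were matched through GENCODE M21, and 6 of the 10 members had a window in the promoter table, of which those of Areg, Erbb2 and Egf are printed.

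Alternatives were DESeq2 1.42.0 (size factors and Wald test), upper-quartile and total-count scaling, limma 3.58.1 (voom, and log2(FPKM + 1) or log2(FPKM + 0.1)), the MA-plot test, the unfiltered table, a minimum of 10 counts per library, a replicate block, leaving out each library, and replicates 1 and 3 only.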

Additional observations from a re-analysis of the deposited data

How the results depend on the processing

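Depth limited Areg and Ereg, which had 2 to 10 counts per library. Egf, Erbb2 and Erbb3 were each called under 18 of 19 alternatives, and Nrg1 under 17 of the 18 that tested it. The MA-plot test, which has no term for the spread between mice, called 8 members and 11960 of 16959 genes in all (70.5%). With replicates 1 and 3 only, 0 members and 0 genes were called by edgeR. At an unadjusted p under 0.05 it called 4 members and 5026 of 14447 genes. The adjusted p was 0.0542 for Erbb3, 0.0553 for Egf, 0.0771 for Nrg1 and 0.105 for Erbb2. Leaving out 1 library at a time called 4 of the members that pass the filter each time and 5457 to 9165 genes (37.5% to 62.8%). Areg then had log2 fold changes of 0.97 to 1.22 and was not called. Without the filter, Ereg was called without GPR174-KO replicate 3 (1.51, adjusted p = 0.0383) and by the MA-plot test (1.46, 0.0209). Areg passed with total counts (1.39, adjusted p = 0.0471), limma voom (0.97, 0.0372), the MA-plot test (1.45, 0.0353), limma on log2(FPKM + 1) (0.20, 0.00431) and on log2(FPKM + 0.1) (0.87, 0.00353). Over all alternatives its adjusted p ran from 0.00353 to 0.371. Hbegf turned positive with total counts (0.23), the MA-plot test (0.23), and with log2(FPKM + 1) (0.21) or log2(FPKM + 0.1) (0.22 with and without the filter), and the MA-plot test called it (adjusted p = 1.04e-05). With 1 library left out it ran from -0.15 to 0.071, positive without GPR174-KO replicate 3. The cause was not tested. The rank of Areg was 10 in both groups by CPM, which is not scaled for length. By the highest transcript of each gene it was 8 in WT and 7 in GPR174-KO, by replicate 1 alone 8 and 7, and with libraries left out 8 to 9 in WT and 8 to 8 in GPR174-KO. It was 8 without WT replicate 3. Of genes called under TMM, 49.5% were higher, and with total counts 78.4%. The replicate numbers did not pair the samples (correlations of 0.0163, -0.0281 and -0.00839). With the replicate block 4 members and 6812 genes (47.3%) were called and Areg had 1.14 (adjusted p = 0.131), and no member call changed. Of 253 other gene values, 222 kept their side of the threshold and direction.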

Other observations

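By the root mean square difference of centred log2 CPM over the 6 libraries, among 13634 genes with a mean of at least 1 CPM, the genes most like Egfr were Hira (0.00701), Gosr2 (0.00988) and Zbtb14 (0.00998), and 633 genes lay under 0.05. The genes most like Hbegf were Lrfn3 (0.0307), Rnaset2b (0.0347) and Tmem216 (0.0432), and 9 genes lay under 0.05. The summed TPM of the 3 receptors was 22.8, 24.4 and 27.4 in WT and 43.6, 43.4 and 43.6 in GPR174-KO, and that of the 7 ligands was 28.8, 28.6 and 27.8 in WT and 35.5, 32.1 and 29.8 in GPR174-KO. TPM is not scaled by TMM, so these sums are not a measure of change between the groups. Egfr went from a mean of 12.8 to 16.8 TPM and Hbegf from 20.5 to 26.2 TPM. Under TMM their log2 fold changes were 0.02 and -0.04. Within a library, receptor sums exceeded ligand sums in 0 of 3 WT and 3 of 3 GPR174-KO libraries.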
